A study of Mus musculus with 4 samples.

Results

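Interferon-stimulated genes are the transcripts that cells make in response to interferons. They were described here as a list of 38 genes, which were taken from the 31053 features of the count matrices by matching the gene symbol. The list has 27 type I-like members, such as Ifit1, Isg15, Rsad2, Irf7 and the Oas genes, and 11 GBP-type members, which are Irf1, Gbp2, Gbp3, Gbp4, Gbp5, Gbp7, Ifi47, Igtp, Irgm1, Cxcl9 and Cxcl10. All 38 symbols were found in all 4 libraries. The study used a mouse model of epidermolysis bullosa acquisita (EBA), a blistering skin disease in which antibodies bind collagen VII, the protein of the fibrils that anchor epidermis to dermis. C57BL/6J mice aged 6 to 8 weeks were injected with 250 µg of rabbit IgG, 3 times in each of 2 weeks. In the EBA group this was antigen affinity-purified IgG against the vWFA2 domain of collagen VII, and in the control group, called IgG, it was control rabbit IgG, so both groups received rabbit antibody. Blood after lysis of red cells and enzymatically digested ear skin, described as lesional, each gave 1 droplet library per group, and each library pooled 3 mice.

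Type I interferons signal through Ifnar1 and Ifnar2 to a transcription factor complex that includes Stat2 and Irf9 and binds the interferon-stimulated response element (ISRE) of genes such as Ifit1, Isg15 and Rsad2. Interferon gamma signals through Ifngr1 and Ifngr2 to the gamma-activated site (GAS) and induces Irf1, the guanylate-binding proteins (Gbp genes), the immunity-related GTPases (Irgm1, Igtp, Ifi47) and the chemokines Cxcl9 and Cxcl10. Many members of each group respond to both kinds of interferon, so the grouping is by the leading response only. Several members keep a constitutive level in lymphocytes and myeloid cells without infection.

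Many members lie beside each other in the genome. In GRCm38 coordinates, Ifit2, Ifit3 and Ifit1 occupy chr19:34550694-34650009, Gbp5, Gbp7, Gbp3 and Gbp2 lie between chr3:142493978 and chr3:142638008, Cxcl9 and Cxcl10 between chr5:92321347 and chr5:92348889, and Rsad2 and Cmpk2 are neighbours on opposite strands of chromosome 12. Oas2, Oas3 and Oas1a lie between chr5:120730333 and chr5:120907521. Close copies exist for several (Ifit1 and Ifit1bl1, Ifit3 and Ifit3b, the Oas1, Gbp, Ifi203/Ifi204 and Slfn families), so the division of reads between such copies is uncertain. RefSeq promoter windows (GRCm38.p6, 250 bases before to 50 bases after the start of the gene) were matched for 30 of the 38 members. The windows were searched on both strands for an ISRE core, GAAA followed by any 2 bases and GAAA, and for a GAS core, TTCNNNGAA, which reads the same on both strands. The ISRE core was found in 12 of 20 type I-like windows (60.0%), in 7 of 10 GBP-type windows (70.0%) and in 3.99% of the windows of all 27025 genes. The GAS core was found in 3 of 20 type I-like windows (15.0%), in 4 of 10 GBP-type windows (40.0%) and in 9.55% of all windows. For 11 members no ISRE core lay in the window, which says only that these letters were not there. The 250 bases before the start are shown for 6 members on which the results below turn, 5′ to 3′ on the strand of the gene, in lower case with the ISRE core, or both cores in Igtp, in capitals. Isg15 (chr4:156200819-156201068, minus strand) holds 3 overlapping ISRE cores that begin 78, 72 and 66 bases before the start. Rsad2 (chr12:26456453-26456702, minus strand) holds 1 at 120 bases and Ifit3 (chr19:34583279-34583528, plus strand) 1 at 156 and 1 at 122 bases. Of the GBP-type members, Cxcl10 (chr5:92348890-92349139, minus strand) has its core at 213 bases and Gbp2 (chr3:142620413-142620662, plus strand) at 59 bases. Igtp (chr11:58199306-58199555, plus strand) has a GAS core at 45 bases and an ISRE core at 34 bases.
Isg15: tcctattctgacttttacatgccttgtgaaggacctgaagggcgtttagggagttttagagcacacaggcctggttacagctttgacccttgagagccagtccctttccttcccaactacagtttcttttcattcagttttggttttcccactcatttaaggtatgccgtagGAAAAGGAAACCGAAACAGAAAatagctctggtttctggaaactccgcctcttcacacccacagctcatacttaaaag
Rsad2: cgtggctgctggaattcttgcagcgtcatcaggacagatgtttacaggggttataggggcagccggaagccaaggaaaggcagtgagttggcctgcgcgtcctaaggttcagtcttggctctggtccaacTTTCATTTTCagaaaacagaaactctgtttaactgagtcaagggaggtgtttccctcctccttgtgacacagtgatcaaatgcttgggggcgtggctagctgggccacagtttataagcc
Ifit3: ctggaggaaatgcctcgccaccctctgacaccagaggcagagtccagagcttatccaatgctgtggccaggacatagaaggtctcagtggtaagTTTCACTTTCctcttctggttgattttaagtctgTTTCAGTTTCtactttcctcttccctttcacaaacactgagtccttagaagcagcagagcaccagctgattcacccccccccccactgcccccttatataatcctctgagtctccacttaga
Cxcl10: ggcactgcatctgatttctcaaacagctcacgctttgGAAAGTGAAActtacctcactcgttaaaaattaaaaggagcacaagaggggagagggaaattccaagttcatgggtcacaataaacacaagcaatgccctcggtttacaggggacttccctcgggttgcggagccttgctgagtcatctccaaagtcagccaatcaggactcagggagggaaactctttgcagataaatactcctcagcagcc
Gbp2: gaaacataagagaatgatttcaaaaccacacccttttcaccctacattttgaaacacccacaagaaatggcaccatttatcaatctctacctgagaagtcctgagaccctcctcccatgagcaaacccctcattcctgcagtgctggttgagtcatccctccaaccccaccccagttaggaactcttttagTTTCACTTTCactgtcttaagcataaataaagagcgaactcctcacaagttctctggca
Igtp: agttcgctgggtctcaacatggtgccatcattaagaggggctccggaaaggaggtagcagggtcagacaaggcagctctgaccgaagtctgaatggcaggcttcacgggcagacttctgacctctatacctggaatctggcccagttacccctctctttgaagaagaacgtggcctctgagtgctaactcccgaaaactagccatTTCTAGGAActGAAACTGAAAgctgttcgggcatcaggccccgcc

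The deposited matrices held 5008 (IgG) and 5113 (EBA) barcodes from blood and 6770 (IgG) and 6300 (EBA) barcodes from skin, with 22705634 to 90829463 unique molecular identifiers (UMIs, which count RNA molecules) per library. After filtering, 4349, 3325, 5106 and 4134 cells were kept, with medians of 3742 to 10632 UMIs. Cells were clustered and each cluster was named, with the ending "-like", from marker genes of 24 cell types. The names below leave that ending out. The libraries differed in make-up: 872 skin neutrophils came from the EBA library and 1 from the IgG library, and keratinocytes numbered 3420 in IgG skin and 897 in EBA skin. Of the barcodes, 65 occurred in more than 1 library, 36 of them among kept cells. Levels are in CPM, the UMIs of a gene as a share of all UMIs of a class in a library, scaled to a total of 1000000. Each group had 1 library, so no test of a condition was possible. Each ratio is given with its exact 95% interval (Clopper-Pearson), which covers counting error only and not the spread between mice. A member was measured in a comparison when both groups together held at least 10 UMIs and the higher group reached 10 CPM. It was called when the ratio was at least 2-fold with an interval that left out 1. Where the median gene of a comparison differed from no change by more than 0.1 (log2), calls were also made relative to that median.

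In the IgG libraries, blood myeloid cells and skin vascular endothelium held the highest levels of the type I-like list. Summed over its 27 members, the list reached 4249 CPM in IgG blood monocytes, 3379 CPM in IgG blood neutrophils and 2633 CPM in IgG skin vascular endothelium. In the other IgG blood classes it ranged from 680 CPM in NK cells to 1418 CPM in B cells. In IgG skin, macrophages (682 CPM), mural cells (602 CPM), Schwann cells (521 CPM), lymphatic endothelium (491 CPM), fibroblasts (369 CPM), T cells (349 CPM) and Langerhans cells (338 CPM) followed, and the lowest sums were in keratinocytes (65.8 CPM) and in hair follicle or sebaceous cells (54.5 CPM). The same classes were lowest in EBA skin, at 56.7 and 61.4 CPM.

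**Figure D1:**
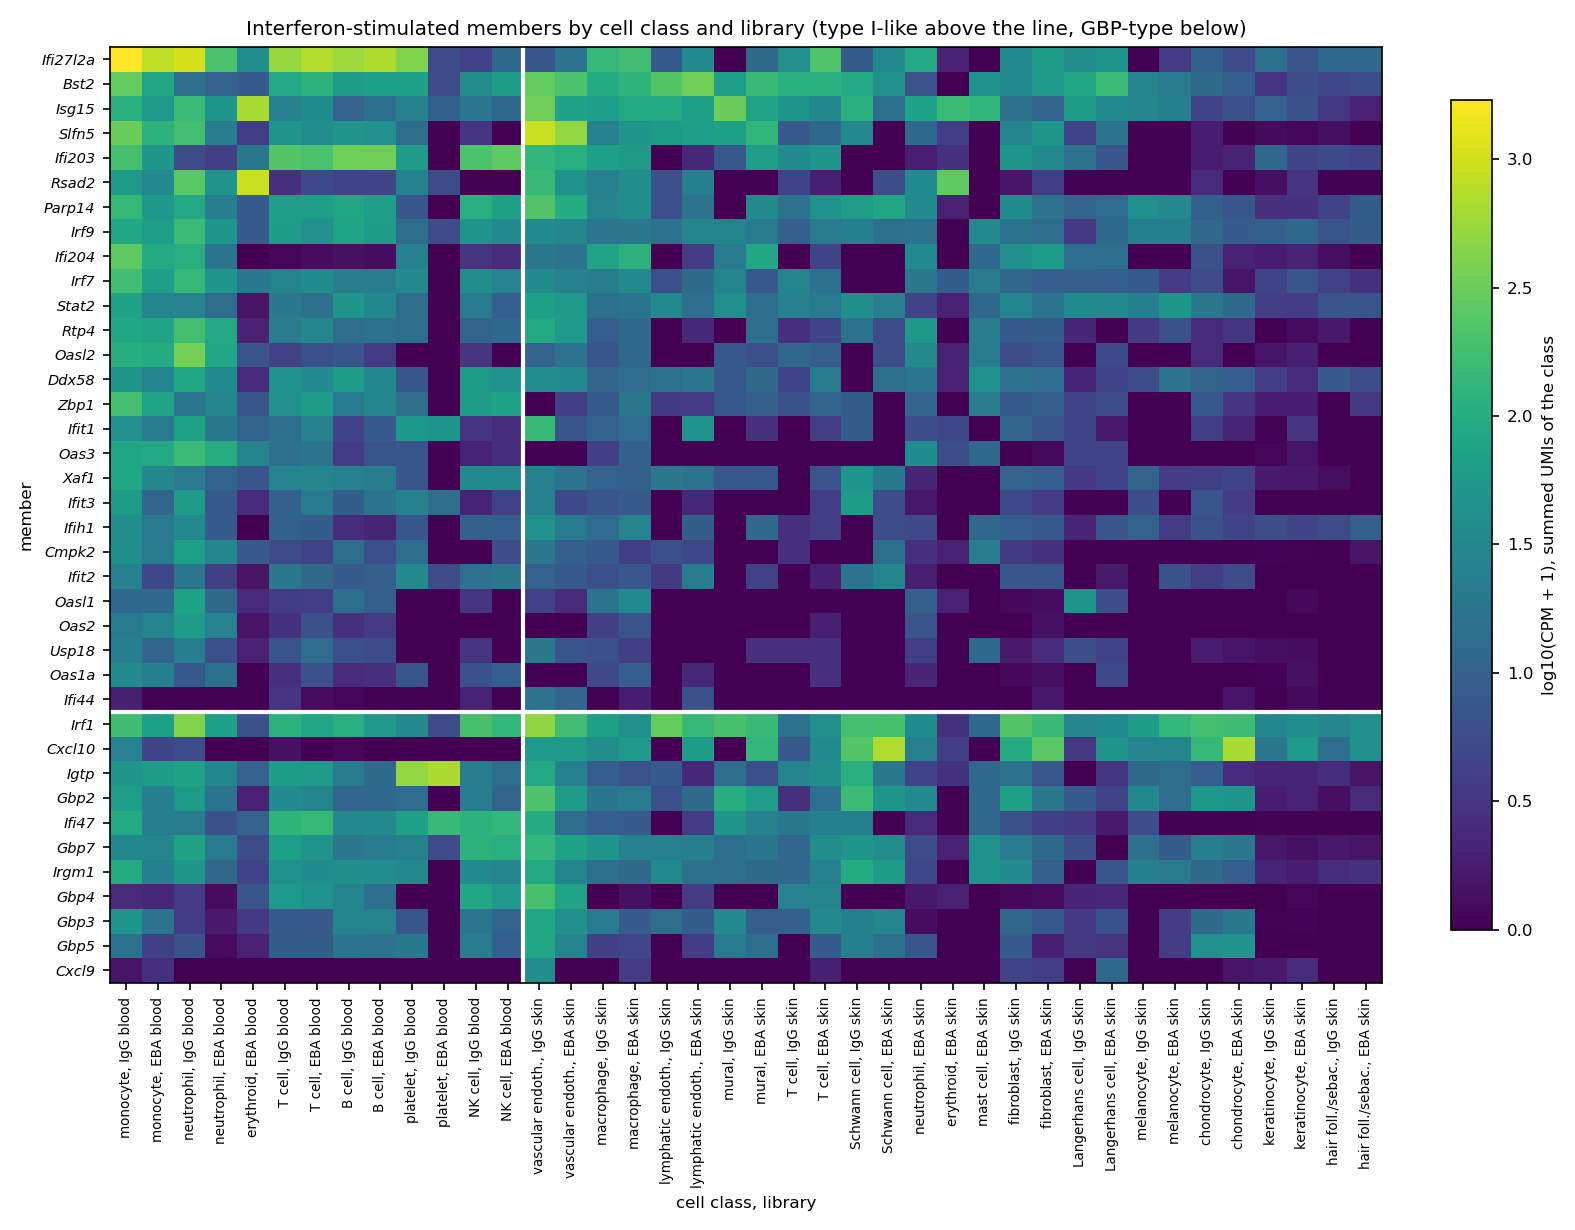
Heat map of the 38 members (rows, type I-like above the white line and GBP-type below) in each cell class and library (columns, blood to the left), coloured by log10(CPM + 1) of the summed UMIs. Ifi27l2a is highest in the blood monocyte columns and the IgG blood neutrophil column, and Cxcl10 is bright in the EBA skin Schwann cell (707 CPM) and chondrocyte (669 CPM) columns.

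The 11 GBP-type members had a different order. Their sum was highest in IgG skin vascular endothelium (1574 CPM), followed by IgG Schwann cells (897 CPM), platelets (711 CPM), blood neutrophils (697 CPM) and NK cells (634 CPM). In chondrocytes the GBP-type sum exceeded the type I-like sum (472 against 117 CPM in IgG skin, 982 against 76.0 CPM in EBA skin), and in monocytes it was far below it (588 against 4249 CPM in IgG blood). NK cells stood between, with 634 CPM of GBP-type and 680 CPM of type I-like transcripts in IgG blood.

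The leading members differed between classes. Ifi27l2a, a small interferon-induced mitochondrial protein, led blood monocytes (1698 CPM in IgG, 842 CPM in EBA), neutrophils (1038 and 205 CPM), B cells (563 and 681 CPM) and T cells (535 and 710 CPM). In IgG monocytes Slfn5 (312 CPM), Bst2, which encodes the virus-tethering protein tetherin (283 CPM), and the DNA-binding Ifi204 (267 CPM) and Ifi203 (189 CPM) came next. In EBA monocytes these places were taken by Slfn5 (123 CPM), Oasl2 (95.2 CPM), Ifi204 (92.4 CPM) and Oas3 (88.1 CPM). Ifi203 was the second member in B cells (327 and 338 CPM) and T cells (230 and 198 CPM) and the first in NK cells (205 and 265 CPM), where the transcription factor Irf1 (192 and 136 CPM), Ifi47 (121 and 135 CPM) and Gbp7 (121 and 104 CPM) followed. In skin, vascular endothelium was led by Slfn5 (896 CPM in IgG, 514 CPM in EBA), macrophages by Ifi27l2a (140 and 170 CPM), lymphatic endothelium by Irf1 in IgG (293 CPM) and Bst2 in EBA (337 CPM), and Langerhans cells by Bst2 (85.7 and 157 CPM). Isg15, a ubiquitin-like protein, led mural cells of IgG skin (321 CPM). Keratinocytes, the most numerous skin class in both libraries, had Irf1 (31.3 and 36.9 CPM) and Cxcl10 (18.3 and 54.5 CPM) on top and no other member above 15 CPM in either library. Transcript levels are compared between members without a correction for length, since 3′ tags are counted once per molecule.

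**Figure D2:**
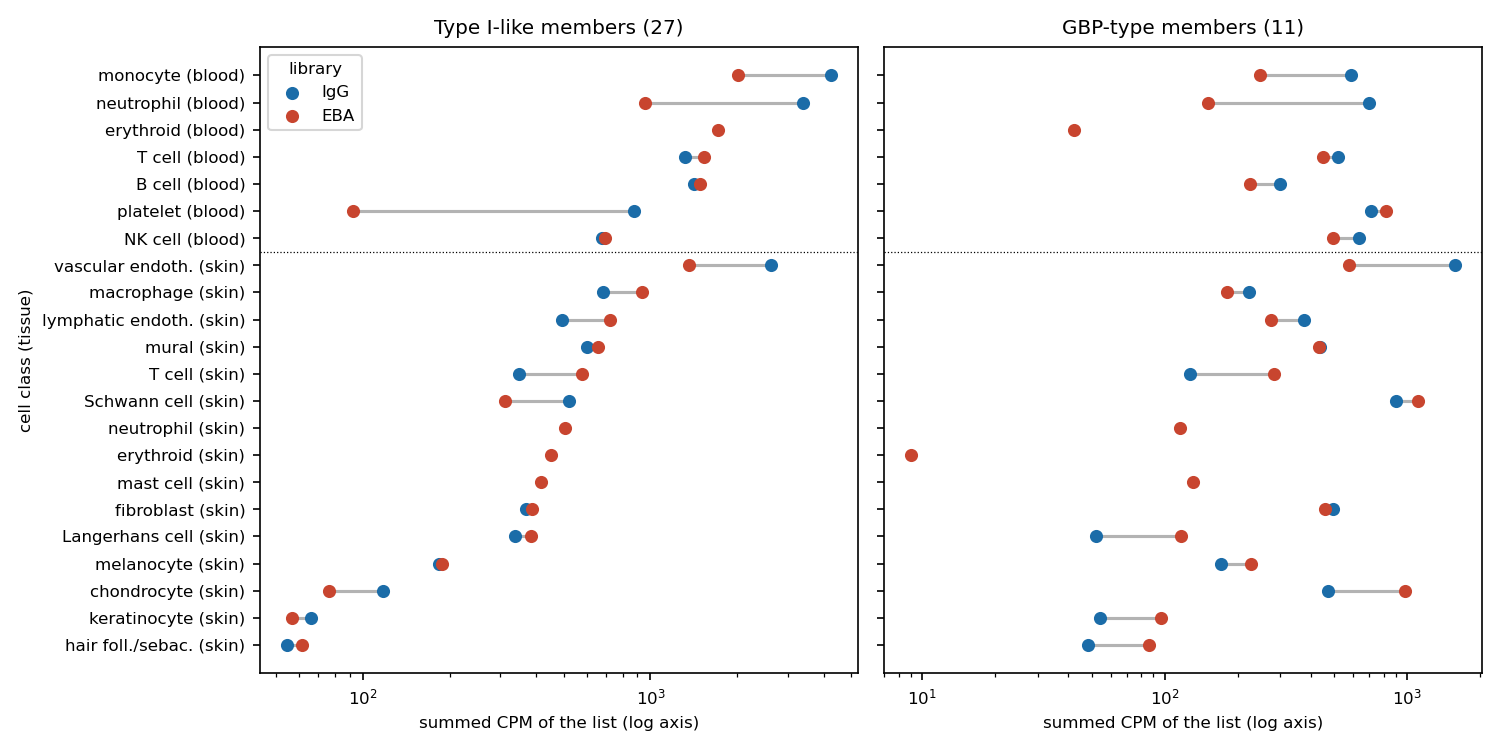
Summed CPM (log axis) of the 27 type I-like members (left) and the 11 GBP-type members (right) by cell class (blood above the dotted line, skin below), with IgG libraries in blue, EBA libraries in red and a grey line between the 2 libraries of a class. On the left, blood neutrophils stand at 3379 CPM in IgG and 957 CPM in EBA and monocytes at 4249 and 2022 CPM, while T cells stand at 1316 and 1533 CPM.

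Blood neutrophils of the EBA library held less of both lists. The type I-like sum was 957 CPM in 701 EBA cells and 3379 CPM in 426 IgG cells, 3.53-fold lower (3.40 to 3.67), and the GBP-type sum was 150 against 697 CPM, 4.63-fold lower (4.23 to 5.06). Of the 31 measured members, 26 were lower in EBA by CPM (83.9%) and 1 was higher (3.23%). Of all 6058 measured genes, 55.4% were lower and 4.46% higher, since the median gene stood at -1.12 on the log2 scale. The median type I-like member stood at -1.74 and the median GBP-type member at -1.95. Relative to the median gene, 11 members were lower (35.5%, against 12.8% of all genes) and 2 higher (6.45%, against 14.8%).

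Slfn5 stood at 180 CPM in IgG and 22.7 CPM in EBA neutrophils, 7.93-fold lower (6.49 to 9.70). Ifit3, which binds viral RNA in a complex with Ifit1, was 7.70-fold lower (55.8 to 7.25 CPM, interval 5.34 to 11.1), and Rsad2, the viral replication inhibitor viperin, 5.49-fold lower (249 to 45.3 CPM, 4.70 to 6.42). Ifi204 was 6.26-fold lower (104 to 16.6 CPM, 4.86 to 8.04) and Ifi27l2a 5.05-fold lower (1038 to 205 CPM, 4.69 to 5.44). The GBP-type Irf1 went from 411 to 66.0 CPM, 6.22-fold lower (5.50 to 7.05). These 6 were also called lower relative to the median gene. Of the 2',5'-oligoadenylate synthetase family, whose members make the messenger that activates RNase L, Oas3 and Oas1a were not called lower. Oas3 stood at 101 against 159 CPM (1.57-fold lower) and was not called. Oas1a was the 1 member called higher, at 14.6 against 7.08 CPM (2.06-fold, 1.02 to 4.88), which rests on 8 UMIs in IgG. Rtp4 stood at 87.8 against 175 CPM and Zbp1, a sensor of Z-form nucleic acids, at 30.5 against 17.7 CPM, neither called by CPM. Zbp1 (3.75-fold, 2.38 to 6.23) and Oas1a were the 2 members called higher relative to the median gene.

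The 2 neutrophil groups differed in make-up and depth. The median was 2390.5 UMIs per cell in IgG and 10794 in EBA. Cluster 8 held 416 of the 426 IgG cells and 30 of the 701 EBA cells, and 363 EBA cells formed cluster 17, which was led by the granule genes Camp, Ngp and Ltf of immature neutrophils and stood at 626 CPM of type I-like and 92.9 CPM of GBP-type transcripts. Without cluster 17 the EBA sum was 1438 CPM, with 21 members lower. Within cluster 8 the type I-like sum was 3416 CPM in IgG and 1907 CPM in EBA and 6 of 31 measured members were lower, with the median gene at -0.50 (log2), against 12.5% of all genes in that cluster lower. Ifit1 and Ifih1 turned to log2 ratios of 0.36 and 0.24 there, neither called. Ifit2 had 0 UMIs in EBA and 20 in IgG there, so its log2 ratio of 0.47 is set by a floor of 3 counts. Slfn5, the member named first above, stood at -0.27 and was not called. Platelet transcripts (at least 1 UMI of Ppbp or Pf4) were found in 82.6% of IgG and 84.9% of EBA neutrophils. In the 74 and 106 cells without one, the type I-like sums were 3042 and 530 CPM, with 19 members lower and Oas1a at -0.62 (log2). No share of all genes is given for these cells or for those without cluster 17. The 19 and 21 lower members therefore cannot be set against a background. The part of maturation, depth and platelet RNA in the difference was not tested.

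A minority of IgG neutrophils carried much of the list. After 1000 UMIs were drawn from each cell, 42 of 405 IgG neutrophils (10.4%, 7.58 to 13.8) had at least 10 type I-like UMIs, a limit chosen after the distribution was seen. These cells held 42.2% of the type I-like UMIs of the class. The median cell had 2 and the highest 64. In EBA blood 4 of 695 neutrophils (0.576%) reached 10 UMIs, the median was 0 and the highest cell had 13, and in EBA skin 3 of 810 (0.370%) reached it, with a highest of 16. The leading genes of the high IgG cells were Ifi27l2a, Rsad2, Oasl2, Slfn5 and Isg15. Cells with fewer than 1000 UMIs were left out, which were 21 IgG and 6 EBA blood neutrophils and 62 EBA skin neutrophils. At 500 drawn UMIs, 29.8% (25.5 to 34.4) of IgG and 8.99% (6.98 to 11.4) of EBA blood neutrophils had at least 2 type I-like members, whereas without drawing the shares were 70.2% and 85.3%, in the opposite order. At 500 UMIs the share was 0.0292% in 3420 IgG keratinocytes, and 0 of 897 EBA keratinocytes reached 2 members.

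**Figure D3:**
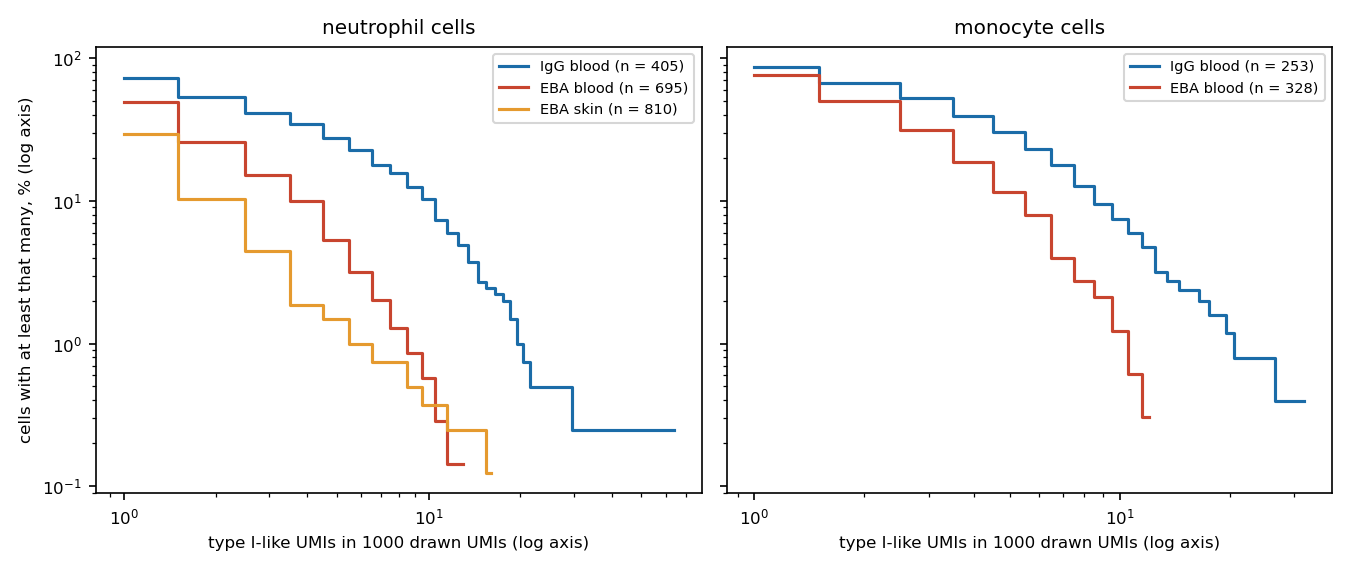
Share of cells (percent, log axis) with at least the number of type I-like UMIs on the x axis (log axis) among 1000 drawn UMIs, for neutrophils (left) and monocytes (right) of IgG blood (blue), EBA blood (red) and EBA skin (orange, neutrophils only). The IgG curves reach 64 UMIs in neutrophils and 32 in monocytes, and the EBA blood curves end at 13 and 12.

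Blood monocytes showed the same order at a smaller size. The type I-like sum was 2022 CPM in 332 EBA cells and 4249 CPM in 256 IgG cells, 2.10-fold lower (2.05 to 2.16), and the GBP-type sum 248 against 588 CPM, 2.37-fold lower (2.21 to 2.54). Of 35 measured members 20 were lower (57.1%) and 0 higher, against 18.5% and 6.78% of all 7534 measured genes. Relative to the median gene, at -0.48 (log2), 10 were lower (28.6%, against 6.42%) and 0 higher (against 11%). By group, 7 of 9 GBP-type members and 13 of 26 type I-like members were lower by CPM, with medians of -1.61 and -1.0.

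Cxcl10, which attracts Cxcr3-bearing T cells, had the largest difference of the monocyte members, at 25.7 CPM in IgG and 3.67 CPM in EBA (7.02-fold lower, 4.46 to 11.2), and 9 of 256 IgG cells and 5 of 332 EBA cells held all of its UMIs. The GTPases Ifi47 (94.0 to 23.02 CPM, 4.08-fold lower, 3.34 to 4.99) and Irgm1 (95.4 to 23.5 CPM, 4.06-fold lower, 3.33 to 4.96), which act on pathogen-containing vacuoles, were close to each other. Ifit3 was 5.48-fold lower (57.1 to 10.42 CPM, 4.14 to 7.26) and Ifit2 6.07-fold lower (24.3 to 4.01 CPM, 3.88 to 9.60). Ifi203 stood at 190 against 48.5 CPM (3.91-fold lower, 3.40 to 4.49). Other members of comparable level were not called, among them Oasl2 (103 and 95.2 CPM), Oas3 (79.1 and 88.1 CPM), Irf9 (86.5 and 62.2 CPM) and Isg15 (108 and 54.6 CPM, 1.97-fold lower).

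The monocytes fell into clusters 6 and 11, which held 228 and 28 of the IgG cells and 116 and 216 of the EBA cells. Cluster 6 was led by Ear2 and Cx3cr1, with 4 monocyte markers in its top 10 genes. Cluster 11 was led by Prtn3 and Ccr2, with 3 monocyte markers, 2 platelet markers and 1 neutrophil marker in its top 10. The type I-like sum was lower in EBA within each, at 4214 and 2318 CPM in cluster 6 and 4426 and 1974 CPM in cluster 11, with 23 of 35 and 17 of 34 measured members lower and 0 higher. Of all genes, 9.86% and 16.1% were lower and 3.73% and 3.44% higher in these clusters, with the median gene at -0.21 and -0.46 (log2). Median depth was 8164.5 UMIs in IgG and 20527 in EBA, and 56.6% and 91.9% of cells held a platelet UMI. In the 111 IgG and 27 EBA cells without one, the sums were 3660 and 1617 CPM and 14 members were lower, while Ifit2 stood at -0.17 (log2) and neither it, Ifit3 nor Cxcl10 was called lower. No share of all genes is given for these cells, so the 14 cannot be set against a background. In cluster 11 alone Cxcl10 was not called, at -1.4. At 1000 drawn UMIs, 19 of 253 IgG monocytes (7.51%) and 4 of 328 EBA monocytes (1.22%) had at least 10 type I-like UMIs.

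**Figure D4:**
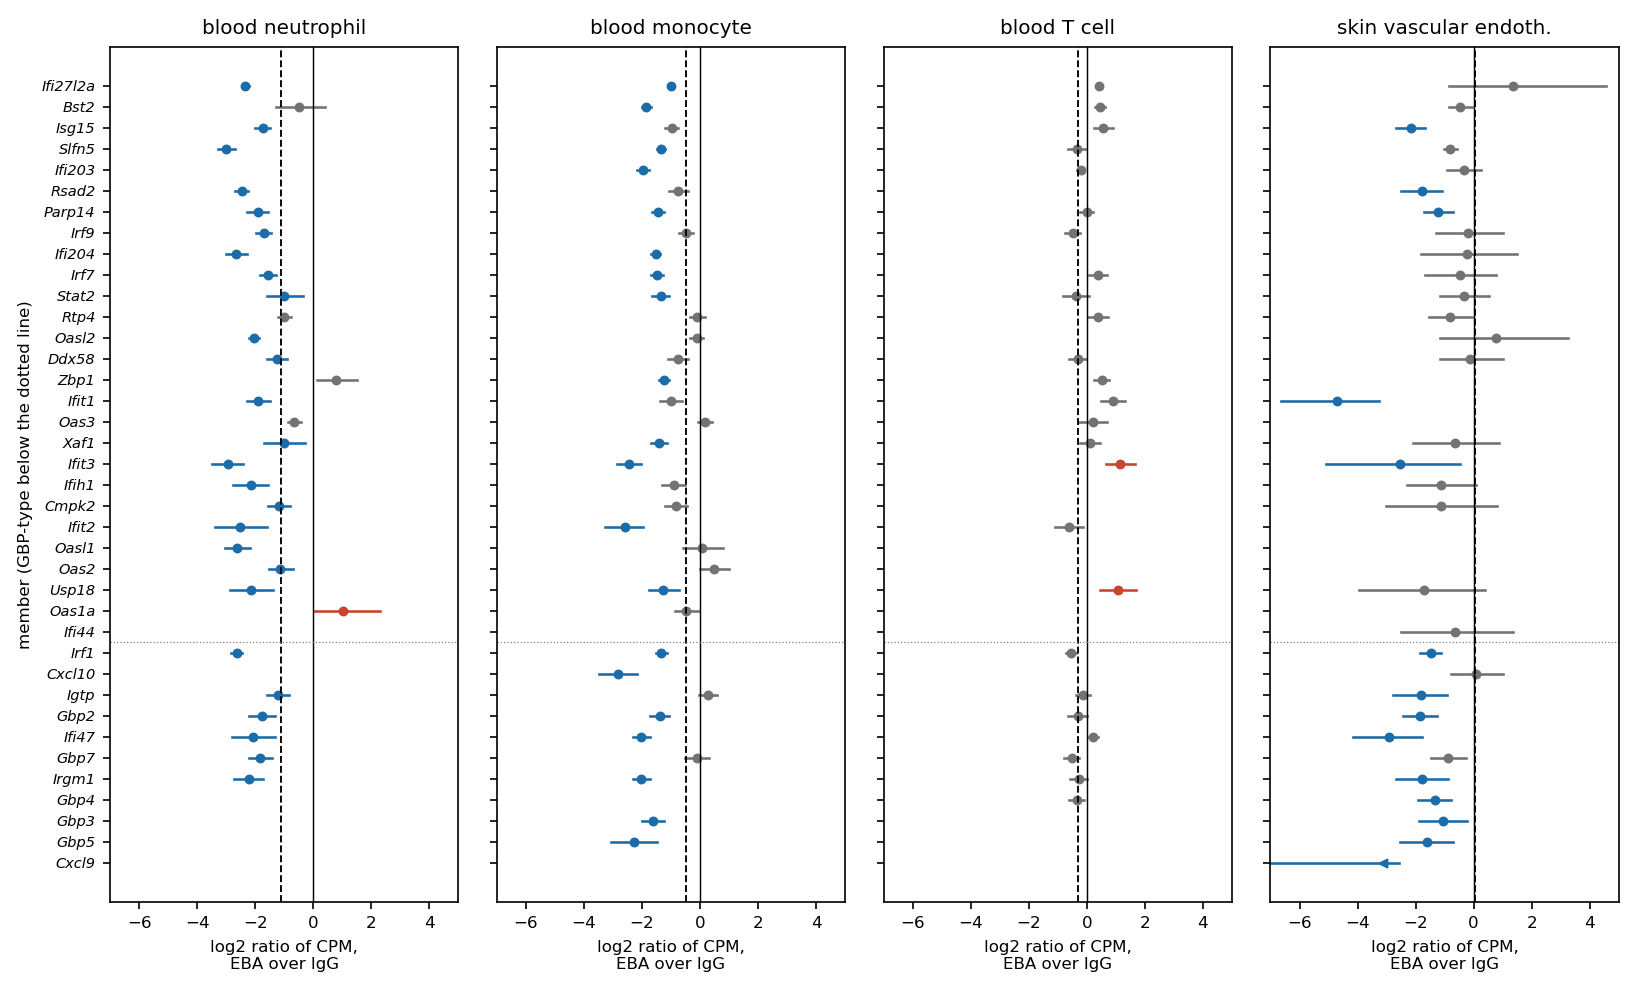
log2 ratio of CPM (EBA over IgG) with its exact 95% interval for each measured member (rows, GBP-type below the dotted line) in blood neutrophils, monocytes and T cells and in skin vascular endothelium, with called members in red (higher) or blue (lower), the others in grey, and the median of all measured genes as a dashed line. Most neutrophil and monocyte members lie left of their dashed lines at -1.12 and -0.48, whereas T cell members lie on both sides of theirs at -0.29.

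The list sums of blood lymphocytes differed less than those of myeloid cells. In B cells (2087 IgG, 810 EBA) the type I-like sum was 1418 CPM in IgG and 1485 CPM in EBA, and in T cells (1210 and 658 cells) 1316 and 1533 CPM, 1.16-fold higher (1.13 to 1.20). The GBP-type sums were lower in EBA, at 299 and 225 CPM in B cells and 520 and 452 CPM in T cells, a ratio of 0.870 (0.822 to 0.920) in the latter. In T cells, 2 of 25 measured members were higher (8.00%, against 0.727% of all 7015 genes) and 0 lower (against 7.63%). Relative to the median gene 3 were higher (12.0%, against 1.37%) and 0 lower (against 2.28%). These were Ifit3 (20.2 against 9.03 CPM, 2.24-fold, 1.59 to 3.16), the Isg15-removing protease Usp18 (12.4 against 5.88 CPM, 2.11-fold, 1.37 to 3.27) and, relative to the median gene, Ifit1 (25.6 against 13.8 CPM, 1.86-fold). The Ifit3 call was lost without haemoglobin-rich cells (0.65 on the log2 scale) and the Usp18 call with a 5% mitochondrial limit (0.90), without doublet removal (0.96) or without platelet-UMI cells (0.96). The abundant members were not called: Ifi27l2a stood at 710 against 535 CPM (1.33-fold), Ifi203 at 198 against 230 CPM, Ifi47 at 146 against 124 CPM and Bst2 at 121 against 88.0 CPM. At 1000 drawn UMIs, 11 of 647 EBA T cells (1.70%) had at least 10 type I-like UMIs and held 12.7% of those of the class. In IgG blood 4 of 1208 T cells (0.331%) did, with 2.65%. The median T cell had 1 in both libraries.

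Of the B cells, 711 EBA and 1065 IgG cells lay in cluster 3 and 99 and 1022 in cluster 1. In B cells 1 of 25 measured members was higher (4.00%, against 0.554% of all 7403 genes), which was again Ifit3 (17.1 against 7.94 CPM, 2.16-fold, 1.49 to 3.13). The Ifit3 call was lost in cluster 3 alone (log2 ratio 0.93), with marker-named cells (0.64), with a 5% mitochondrial limit (0.76) and without haemoglobin-rich cells (0.95). By CPM, 3 were lower (12.0%, against 9.31%): Irf1 (52.9 against 106 CPM, 2.00-fold, 1.70 to 2.36), Gbp4 (13.7 against 27.4 CPM, 2.00-fold) and the nucleotide kinase Cmpk2 (5.23 against 12.7 CPM, 2.44-fold). Relative to the median gene at -0.33, 1 was higher (against 1.09%) and none of the 3 remained lower (0 of 25, against 2.24%). Ifi27l2a (681 against 563 CPM), Ifi203 (338 against 327 CPM), Parp14 (63.9 against 81.4 CPM) and Irf9 (59.5 against 74.9 CPM) were not called. In NK cells (229 and 183 cells) 0 of 22 measured members were called by CPM, against 1.1% of all 7703 genes higher and 6.69% lower, and 0 relative to the median gene, against 1.86% and 3.52%.

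In skin, macrophages (143 IgG, 616 EBA) held somewhat more type I-like RNA in EBA, 938 against 682 CPM (1.38-fold, 1.27 to 1.49), and slightly less GBP-type RNA, 181 against 222 CPM (1.23-fold lower, 1.05 to 1.42). Of 24 measured members 2 were higher (8.33%, against 5.64% of all 7624 genes) and 1 lower (4.17%, against 6.47%), shares near the background. The RNA sensor Ifih1 stood at 26.5 against 12.4 CPM (2.15-fold, 1.19 to 4.26) and Zbp1 at 18.9 against 7.21 CPM (2.63-fold, 1.23 to 6.70), which rests on 7 IgG UMIs. Gbp3 was the lower 1, at 7.41 against 19.6 CPM (2.64-fold, 1.44 to 4.69). With marker-named cells neither Ifih1 nor Gbp3 was called (log2 ratios of 0.98 and -1.0). The leading members were higher by less than the limit: Ifi27l2a at 170 against 140 CPM (1.22-fold), Bst2 at 127 against 95.8 CPM, Ifi204 at 120 against 76.2 CPM (1.57-fold) and Isg15 at 89.3 against 61.8 CPM (1.45-fold). The type I-like sum was higher in EBA in each of the 3 sub-clusters present in both libraries, at 590 and 1088 CPM, 809 and 1269 CPM, and 569 and 730 CPM.

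Skin vascular endothelium had the opposite order, with a type I-like sum of 1365 CPM in 58 EBA cells and 2633 CPM in 51 IgG cells (1.93-fold lower, 1.76 to 2.12) and a GBP-type sum of 577 against 1574 CPM (2.73-fold lower, 2.39 to 3.12). Of 32 measured members 14 were lower (43.8%) and 0 higher, against 3.35% and 4.57% of all 8004 genes, and the median gene was at 0.04 (log2). The GBP-type members were concerned most, with 9 of 11 lower. Ifi47 was 7.44-fold lower (3.46 to 17.8), Gbp2 3.58-fold lower (214 to 59.8 CPM) and Irf1 2.79-fold lower (489 to 175 CPM). Cxcl9, the other Cxcr3 ligand, had 12 UMIs in IgG and 0 in EBA, at least 8.64-fold lower against a floor of 3 counts. Of the type I-like members, 5 of 21 were lower, among them Ifit1 (151 to 5.84 CPM, 25.9-fold lower, 9.49 to 99.0), which had 4 UMIs in EBA, and Isg15 (334 to 74.4 CPM, 4.49-fold lower, 3.19 to 6.40). Slfn5 (896 to 514 CPM, 1.74-fold lower), Bst2 (281 to 203 CPM), Gbp7 (136 to 74.4 CPM) and Ifi203 (132 to 105 CPM) were not called. At 1000 drawn UMIs, 2 of 49 IgG cells had at least 10 type I-like UMIs, led by Slfn5 and Ifit1. They held 21.6% of the type I-like UMIs of the class. Of 56 EBA cells, 0 reached 10, and the median cell had 2 in IgG and 1 in EBA. Median depth was 5461 UMIs per IgG and 9031 per EBA cell. Within sub-cluster 28a (32 IgG and 44 EBA cells) the type I-like sums were 2416 and 1286 CPM and the GBP-type sums 1489 and 556 CPM. There 13 of 25 measured members were lower and 2 higher, against 4.40% and 4.94% of all genes. The higher ones were Ifi203 (104 against 44.7 CPM, 2.31-fold, 1.03 to 6.10) and Cxcl10 (72.2 against 6.39 CPM, 11.3-fold, 1.88 to 461, from 1 UMI in IgG).

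Cxcl10 differed in many skin classes. It was higher in EBA in keratinocytes (18.3 to 54.5 CPM, 2.97-fold, 2.77 to 3.19) and fibroblasts (96.1 to 250 CPM, 2.60-fold, 2.37 to 2.86). Its highest levels were in Schwann cells (232 to 707 CPM) and ear cartilage chondrocytes (143 to 669 CPM). Mural cells went from 0 to 138 CPM, lymphatic endothelium from 0 to 60.3 CPM and Langerhans cells from 2.49 to 47.8 CPM, while vascular endothelium stood at 53.6 and 56.9 CPM and melanocytes at 26.6 and 29.2 CPM, neither called. The vascular value differed between sub-clusters, as given above for 28a. Macrophages stood at 38.1 and 55.4 CPM. In blood Cxcl10 was lower in EBA monocytes and had 0 UMIs in EBA neutrophils.

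**Figure D5:**
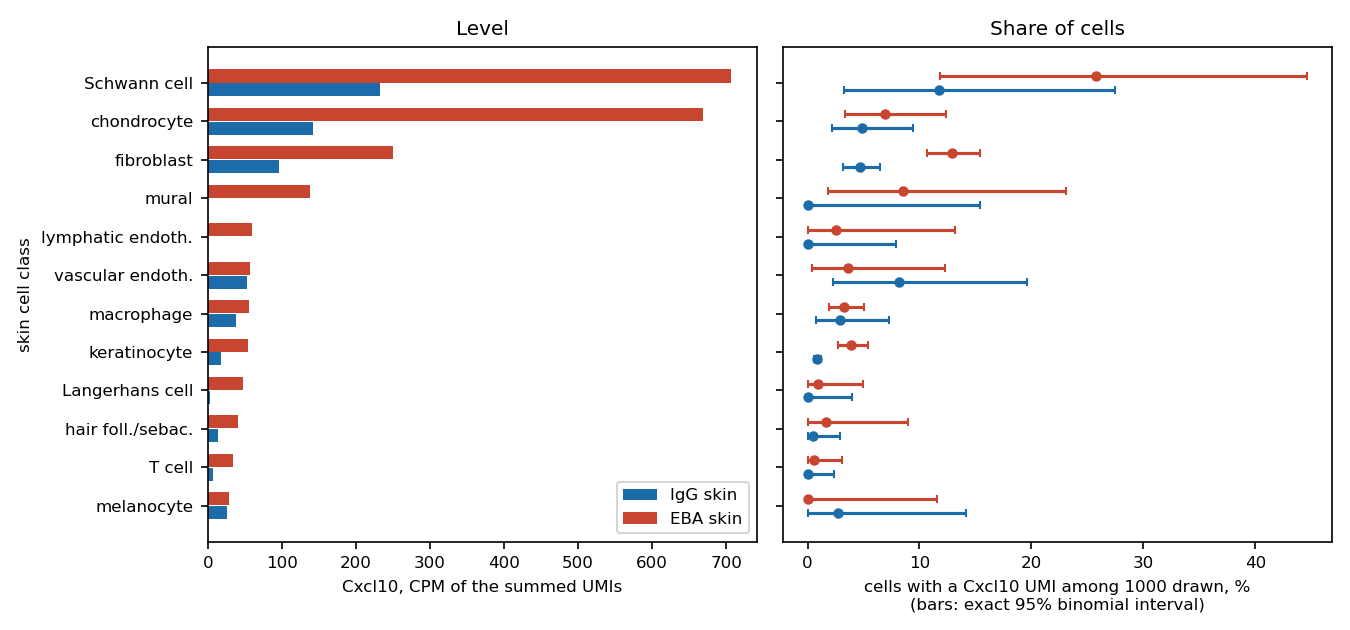
Cxcl10 in skin cell classes of IgG (blue) and EBA (red): CPM of the summed UMIs (left) and the share of cells with a Cxcl10 UMI among 1000 drawn UMIs (right, bars are exact 95% binomial intervals). The level is higher in EBA in each of the 12 classes, and the share is apart between libraries in fibroblasts (12.9% against 4.66%) and keratinocytes (3.88% against 0.857%). In vascular endothelium and melanocytes the levels are close and not called. There the share is lower in EBA (3.57% against 8.16%, and 0% against 2.70%), with overlapping intervals.

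Most of these levels rested on few cells. In EBA chondrocytes, the 5 highest of 144 cells held 76.9% of the 1284 Cxcl10 UMIs, and in EBA Langerhans cells and skin T cells the 5 highest held 98.6% and 94.4%. Fibroblasts and keratinocytes were spread more widely. Among fibroblasts, 271 of 797 EBA cells (34%) and 99 of 699 IgG cells (14.2%) held a UMI. Among keratinocytes, 207 of 897 EBA cells (23.1%) and 266 of 3420 IgG cells (7.78%) held one. The 5 highest EBA cells had 15.25% of the UMIs in fibroblasts, 22.8% in keratinocytes and 46.8% in macrophages. At 1000 drawn UMIs the fibroblast shares were 12.9% (10.6 to 15.4) and 4.66% (3.21 to 6.51), and the keratinocyte shares 3.88% (2.70 to 5.38) and 0.857% (0.574 to 1.23). In EBA skin erythroid cells, which should lack the gene, 1 of 174 cells (0.575%) had a UMI at the same draw. Median depth was 16990 and 5931 UMIs per fibroblast and 35188 and 13578 per keratinocyte in EBA and IgG, and 5838 per EBA erythroid cell. Free RNA was estimated at 7.43% and 7.15% of the UMIs of IgG Schwann cells and chondrocytes and at 1.73% and 1.85% in EBA, and its part in their levels was not tested.

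The other GBP-type members of fibroblasts had the opposite direction. Their sum without Cxcl10 was 210 CPM in EBA and 398 CPM in IgG, 1.90-fold lower, while the type I-like sum was 388 against 369 CPM. Gbp2 stood at 18.3 against 68.6 CPM (3.75-fold lower, 3.21 to 4.40), Irgm1 at 8.87 against 35.4 CPM (3.99-fold lower, 3.18 to 5.01) and Igtp at 6.49 against 15.3 CPM (2.36-fold lower). With Parp14 (16.1 against 36.5 CPM, 2.27-fold lower), 4 of 19 measured members were lower (21.1%, against 3.12% of all 8274 genes) and 1 higher (5.26%, against 3.08%). Irf1 (151 against 232 CPM, 1.54-fold lower), Ifi27l2a, Ifi204 and Bst2 were not called. The counts differed between clusters: in cluster 16 (157 IgG, 685 EBA cells) 0 of 13 measured members were lower and 2 were higher (against 2.62% and 3.75% of all genes), and Gbp2 stood at -0.32, Irgm1 at 0.03, Parp14 at 0.11 and Igtp at 1.6 (log2), whereas without cluster 16 (542 and 112 cells) 6 were lower and 0 higher, with Cxcl10 at 0.99. For the cells outside cluster 16 no share of all genes is given.

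Keratinocytes had only 5 measured members. Besides Cxcl10, the 1 higher (against 3.95% of all 6839 genes, and 4.72% relative to the median gene at -0.11), 2 were lower (against 2.81% and 2.09%): Ifi203 (3.77 against 10.9 CPM, 2.88-fold) and Ifi27l2a (5.71 against 14.2 CPM, 2.48-fold). Cxcl10 was not higher in every keratinocyte cluster. In cluster 18 (48 IgG, 402 EBA cells) it stood at 167 CPM in IgG and 59.8 CPM in EBA, a log2 ratio of -1.48. The IgG value is from 353 UMIs. Of the 1228 Cxcl10 UMIs of all IgG keratinocytes, 1 cell held 278, and whether it lay in cluster 18 was not tested. Without cluster 18, 2 members were higher and 2 lower, with no share of all genes given for those cells. Some type I-like members were called higher within a cluster. These were Isg15 (2.70-fold) and Ifit1 (69 against 1 UMIs) in cluster 23, Irf9 (2.28-fold) in 21 and Irf7 (3.39-fold) in 24. Isg15 was called lower in cluster 21. In clusters 23, 21 and 24, 2 of 6, 2 of 5 and 2 of 4 measured members were higher, against 3.76%, 1.72% and 4.79% of all genes. There 0, 2 and 0 were lower, against 1.89%, 0.993% and 5.60%.

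Skin T cells (158 IgG, 188 EBA) held more of both lists in EBA, 575 against 349 CPM of the type I-like sum (1.65-fold, 1.40 to 1.94) and 283 against 128 CPM of the GBP-type sum (2.22-fold, 1.71 to 2.91). Of 21 measured members 8 were higher (38.1%) and 0 lower, against 10.6% and 7.19% of all 8181 genes. Relative to the median gene at 0.18 (log2), 8 were higher (against 7.08%) and 1 lower (against 9.58%). Ifi27l2a stood at 215 against 41.9 CPM (5.14-fold, 3.37 to 8.18), Parp14 was 2.87-fold higher and the RNA sensor Ddx58 5.92-fold higher, the last from 2 UMIs in IgG (interval 1.46 to 51.9). Of the GBP-type members, Cxcl10 was 4.84-fold, Gbp7 3.68-fold and Gbp3 3.66-fold higher, whereas Bst2 (103 and 112 CPM) was not called. The class differed in make-up: cluster 26, led by the gamma-delta receptor gene Trdc, held 104 IgG and 43 EBA cells, and cluster 13, with Icos, Il2ra, Foxp3 and Il17a among its leading genes, 52 and 140. Within cluster 13, Ifi27l2a was the 1 higher of 20 measured members (272 against 100 CPM, 2.71-fold, with 3.93% of all genes higher), with sums of 558 against 426 CPM and 330 against 220 CPM. Within cluster 26, 0 of 6 measured members were called, against 7.55% of all genes higher and 2.52% lower.

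Neutrophils of EBA skin (872 cells) were set against those of EBA blood (701 cells), the same class in the 2 tissues of the EBA group. The type I-like sum was 504 CPM in skin and 957 CPM in blood, 1.90-fold lower, and the GBP-type sum 115 against 150 CPM. Of 26 measured members 16 were lower in skin (61.5%, against 21.9% of all 5345 genes) and 3 higher (11.5%, against 33.4%). Relative to the median gene at 0.27 (log2), 19 were lower (73.1%, against 26.6%) and 1 higher (3.85%, against 27.7%). Cmpk2 was 16.8-fold lower (30.02 to 1.79 CPM, 7.61 to 46.2), Oas1a 12.3-fold (4.67 to 45.7), Igtp 8.62-fold (30.8 to 3.58 CPM, 4.85 to 16.9), the apoptosis-related Xaf1 8.49-fold (3.20 to 31.9), Gbp7 4.50-fold (2.66 to 8.22) and Oas2 4.19-fold (26.2 to 6.26 CPM, 2.68 to 6.90). Cxcl10 had 83 UMIs in skin neutrophils and 0 in blood, at least 71.7-fold higher against a floor of 3 counts, and 30 of 872 skin cells held them, the 5 highest 67.5%. Gbp2 (33.97 against 16.5 CPM, 2.07-fold) and Ifi204 (33.97 against 16.6 CPM, 2.05-fold) were also higher by CPM but not relative to the median gene nor against EBA blood without cluster 17, and Isg15 (73.6 against 46.6 CPM), Rtp4 (52.4 against 87.8 CPM) and Irf1 (36.1 against 66.0 CPM) were not called. Tissue, digestion at 37 °C and cell state cannot be told apart here. A platelet UMI was found in 2.41% of skin neutrophils, and in comparison with the 106 EBA blood neutrophils without one, whose type I-like sum was 530 CPM, 7 members were lower and 5 higher, and Igtp (-0.74 on the log2 scale) and Xaf1 (-1.84) were not called. No share of all genes is given for that comparison.

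Interferon transcripts were rare. Of the type I ligands, Ifnb1 had 46 UMIs in 3 cells of EBA skin, 39 of them in 1 keratinocyte, and 1 UMI in IgG skin. Ifnk, the interferon kappa of keratinocytes, had 357 UMIs in 36 cells of IgG skin, mostly hair follicle or sebaceous cells (74.6 CPM, 27 cells), and 9 UMIs in 4 cells of EBA skin (2.95 CPM in that class). Ifng had 100 UMIs in 71 cells of IgG blood and 49 in 45 cells of EBA blood, with NK cells at 96.0 and 58.5 CPM, and 1 UMI in IgG skin against 42 UMIs in 14 cells of EBA skin, where T cells stood at 11.3 CPM. The lambda ligand Ifnl2 had 1 and 11 UMIs in IgG and EBA skin. At least 3 of 4 markers of plasmacytoid dendritic cells (Siglech, Ccr9, Cox6a2 and Klk1), the specialised makers of type I interferon, were found in 0 cells of IgG blood, EBA blood and IgG skin and in 4 of EBA skin. Klk1 had 0 UMIs in IgG blood, EBA blood and IgG skin, so a cell there needed all 3 others. Siglech was found in only 2 cells of IgG blood and 1 of EBA blood, so the rule could hardly be met in blood.

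In blood neutrophils, 11 of 14 measured signalling genes were lower in EBA and 0 higher (55.4% of all genes were lower), and relative to the median gene 3 of 14 were lower (against 12.8%) with a median of -0.22. Of the 6 receptors, Ifnar1 was 3.95-fold and Ifngr2 2.23-fold lower and the lambda receptor Ifnlr1 2.21-fold higher, and relative to the median gene 0 were lower and 1 higher. In monocytes 3 of 14 signalling genes were lower (against 18.5% of all genes), 1 of them relative to the median gene, and the feedback inhibitor Socs3 was the 1 higher (155 against 66.9 CPM). Socs3 was also higher in blood T cells (129 against 20.4 CPM, 6.34-fold) and B cells (23.8 against 2.77 CPM, 8.59-fold). Of 13 measured signalling genes in T cells, 1 was higher and 1 lower, against 0.727% and 7.63% of all genes. Of 15 in B cells, 1 was higher and 1 lower, against 0.554% and 9.31%. Relative to the median gene, 1 was higher (against 1.37% and 1.09%) and 0 lower (against 2.28% and 2.24%) in each. In EBA skin neutrophils against EBA blood neutrophils, 4 of 6 receptors were higher in skin and 0 lower (33.4% of all genes were higher), 3 of them relative to the median gene (against 27.7%), with Ifnar1 at 124 against 21.3 CPM (5.81-fold) and Ifnar2 at 172 against 56.0 CPM (3.08-fold). Of other GBP-type genes outside the list, 9 of 12 measured were lower in EBA blood neutrophils and 7 of 13 in EBA monocytes, with 0 higher in each (against 55.4% and 18.5% of all genes lower). Of these, 4 and 4 were lower relative to the median gene (against 12.8% and 6.42%) and 0 higher. Among them the checkpoint ligand Cd274 (PD-L1) went from 70.0 to 2.07 CPM in blood neutrophils and stood at 600 CPM in EBA skin neutrophils, 290-fold above EBA blood (183 to 490). Of 16 and 25 measured further type I-responsive genes, 7 and 15 were lower by CPM in EBA neutrophils and monocytes and 0 higher, the first a smaller share than the 55.4% of all genes. After subtracting the median gene, 2 were higher and 2 lower in neutrophils, with a median of 0.34, and 1 was higher and 8 lower in monocytes, with a median of -0.72. In vascular endothelium 6 of 12 other GBP-type genes and 4 of 17 other type I-responsive genes were lower, and 0 of 13 signalling genes were called (3.35% of all genes were lower).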

How the data were processed

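The deposited count matrices hold UMI counts per gene and cell barcode of 4 libraries (10x 3′ v3 chemistry), which the authors made with Cell Ranger 3.0.0 on mm10, and Seurat 3.0.0 and 3.1.0 are also named, per the submitters' processing notes. Whether barcodes or doublets were filtered before deposit is not given in the sources used here. Cells with at least 200 genes and at most 10% mitochondrial UMIs were kept, and predicted doublets (163, 94, 228 and 147 cells) were removed with scanpy 1.11.5 (Python 3.11.15, numpy 2.4.6, scipy 1.17.1, pandas 2.3.3). Counts were scaled to 10000 per cell, and 2000 variable genes, 30 principal components and 15 neighbours gave 32 Leiden clusters (resolution 1), of which 4 were divided further. Clusters were named from 154 marker genes, a class needed 20 cells in each library compared, and cluster 31 was named from its leading genes within its own library, which held 4 neutrophil markers in its top 10. Rebuilt class names can differ from those of the study. UMIs were summed per class and library, since cells are not replicates. Called members are named up to 6 per direction, ordered by the interval bound nearest 1, with up to 4 members of 50 CPM or more that were not called, the 5 highest members of a class, and up to 4 called genes per other list, not all of which are repeated. The members and lists were chosen with earlier results of these data known. The calling step was tested on simulated counts. Alternatives were TMM scaling (edgeR 4.0.16), other filters, limits and cells.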

Additional observations from a re-analysis of the deposited data

Results flagged for a closer look

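By CPM, the EBA over IgG ratios of blood and skin T cells pointed in opposite directions for the GBP-type sum and for 4 members, each with intervals on opposite sides of 1. The GBP-type sum was 0.870 in blood and 2.22 in skin, Irf1 0.687 and 2.57, Gbp7 0.697 and 3.68, Gbp2 0.8 and 8.07 (1 UMI in IgG skin), and Ddx58 0.8 and 5.92 (2 UMIs in IgG skin). The median gene stood at -0.29 (log2) in blood T cells and at 0.18 in skin T cells. Relative to it, the median GBP-type member stood at -0.03 in blood, with 0 of 7 measured members called. In skin it stood at 1.18, with 5 of 9 higher and 0 lower. As a group, the GBP-type members of blood T cells thus lay near the median gene. With 1 library per group the difference between tissues was not tested, and cluster 13 held 52 of 158 IgG and 140 of 188 EBA skin T cells.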

How the results depend on the processing

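Counts of called members, higher then lower in EBA (or in skin), depended on the limits as follows, and the cause was not tested. The settings by cluster or sub-cluster were added after the data were seen. Shares of all genes are not given beside these counts. In blood neutrophils (1 and 26) the counts were 2 and 11 relative to the median gene and 2 and 12 with TMM factors, where Stat2 and Xaf1 turned to log2 ratios of 0.11 and 0.11, and 0.05 and 0.04. There were 2 higher at a 1.5-fold limit and 0 higher without cells with a platelet UMI (Oas1a at -0.62), without haemoglobin-rich cells, with platelet-led sub-clusters, and in cluster 8 alone, where 6 were lower and Ifit1 and Ifih1 stood at 0.36 and 0.24. Ifit2 had 0 UMIs in the EBA cells of cluster 8 and stood at 0.47 only against the floor of 3 counts. Monocytes (0 and 20) gave 10 lower relative to the median gene and 11 with TMM. B cells (1 and 3) gave 0 lower with both scalings, 0 higher with marker-named cells and in cluster 3 alone, 3 higher with a 1 CPM minimum and in cluster 1 alone, and 2 and 7 at 1.5-fold. A mitochondrial limit of 5% and leaving out haemoglobin-rich cells each gave 0 and 1, and a minimum of 500 genes or no doublet removal 1 lower. T cells (2 and 0) gave 1 higher with the 5% limit, no doublet removal, or without platelet-UMI or haemoglobin-rich cells, 5 and 1 with a 1 CPM minimum and 1 lower at 1.5-fold. Macrophages (2 and 1) gave 4 higher with both scalings, the 5% limit, no doublet removal or free RNA subtracted, 5 in the 3 shared sub-clusters, 6 without haemoglobin-rich cells, 6 and 3 at 1.5-fold and 0 lower with marker-named cells. Keratinocytes (1 and 2) gave 5 higher with a 1 CPM minimum, 1 lower with the 5% limit, 0 higher in cluster 18 alone (Cxcl10 at -1.48) and 2 without it. Fibroblasts (1 and 4) gave 2 higher with a 1 CPM minimum or without haemoglobin-rich cells, 4 and 9 at 1.5-fold, 2 and 0 in cluster 16 alone (Parp14 at 0.11), and 0 higher without it. Skin against blood neutrophils (3 and 16) gave 1 higher with both scalings, marker-named cells or blood without cluster 17, and 5 and 7 without platelet-UMI cells (Oasl2 at 0.48). No paired analysis was possible because each group had 1 library. In keratinocytes 33 of 38 members were not measured, while the median cell held 35188 UMIs in EBA and 13578 in IgG.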

Other observations

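Erythroid cells carried 2 type I-like members at a high level. In 268 erythroid cells of EBA blood Rsad2 stood at 897 CPM and Isg15 at 644 CPM, out of a type I-like sum of 1710 CPM, while the GBP-type sum was 42.3 CPM. The next members were Ifi27l2a (37.9 CPM) and Oas3 (26.6 CPM). In 175 erythroid cells of EBA skin the same 2 genes led, at 264 and 159 CPM of a sum of 452 CPM. Haemoglobin took 82.5% of the UMIs of the blood cells, so CPM there are shares of a library that is mostly globin. IgG blood had 13 such cells and was not compared. At 1000 drawn UMIs, 9 of 267 blood erythroid cells (3.37%) had at least 10 type I-like UMIs, led by Isg15, Rsad2 and Irf7.

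Platelets were led by the GTPase gene Igtp, at 513 CPM in 87 IgG and 657 CPM in 198 EBA platelets, followed in EBA by Ifi47 (152 CPM). Their type I-like sum was 878 CPM in IgG and 92.0 CPM in EBA, 9.55-fold lower (5.95 to 16.1), on 137 and 20 UMIs. Free RNA was estimated at 13.9% of IgG platelet UMIs and 0.499% of EBA platelet UMIs, and its part in the difference was not tested. EBA skin mast cells (40 cells) had a type I-like sum of 415 CPM, led by Isg15 (131 CPM). Lymphatic endothelium had a higher type I-like sum in EBA (726 against 491 CPM) and a lower GBP-type sum (275 against 377 CPM).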
